A study of Mus musculus with 6 samples.

Results

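Transcripts of 10 genes that run inflammasomes, pyroptosis and necroptosis were followed in 6 mouse livers after partial ischemia and reperfusion. They were chosen by name (Nlrp3, Pycard, Casp1, Casp4, Gsdmd, Nlrc4, Aim2, Ripk1, Ripk3 and Mlkl) and are 10 of the 15454 rows of the deposited count table. All 10 were found there and in the FPKM table, and 8 had enough counts for a test. The livers came from male C57BL/6 mice aged 8 to 10 weeks, all subjected to warm ischemia of 75% of the liver and then reperfusion. The I/R group held 3 livers of mice given vehicle solution, and the I/R+Rk2 group 3 livers of mice given ginsenoside Rk2, a ginseng saponin, in that vehicle. Both were given 2 days before surgery and again when perfusion began. No sham-operated liver was analysed here, so the levels below are those of injured livers only.

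Inflammasomes are cytosolic complexes that sense danger. A sensor (NLRP3, NLRC4 or AIM2) recruits the adapter ASC, encoded by Pycard, which gathers and activates caspase-1. Caspase-1 matures the cytokines IL-1β and IL-18 and cuts gasdermin D, whose released fragment forms pores in the plasma membrane and causes pyroptosis. The product of mouse Casp4, often called caspase-11, binds bacterial lipopolysaccharide inside the cell and cuts the same gasdermin. Necroptosis is a separate lytic death: RIPK1 and RIPK3 assemble below death receptors, and RIPK3 phosphorylates MLKL, which then breaches the membrane. In the liver, sensors and inflammatory caspases are best known from macrophages and infiltrating myeloid cells. All of these proteins are switched on by cleavage, assembly or phosphorylation, none of which RNA sequencing measures.

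Of the 8 genes tested, 6 were lower in I/R+Rk2 with an edgeR adjusted p below 0.05, all 6 by more than 2-fold: Nlrp3, Casp1, Ripk3, Pycard, Casp4 and Mlkl. Gsdmd was higher, by a small margin, and Ripk1 did not pass. The background in this comparison is high, since 43.9% of the 12411 genes tested passed, 23.7% lower and 20.3% higher, and 11.4% were lower and 3.17% higher by more than 2-fold. The median log2 ratio (I/R+Rk2 over I/R, as fitted by edgeR) was -1.62 over the 8 genes and -0.01 over all genes tested. The livers of one group all lay apart from those of the other in 7 of the 8 genes, 6 of them lower in I/R+Rk2, against 57.4% of all genes in either direction and 30.3% lower.

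**Figure D1:**
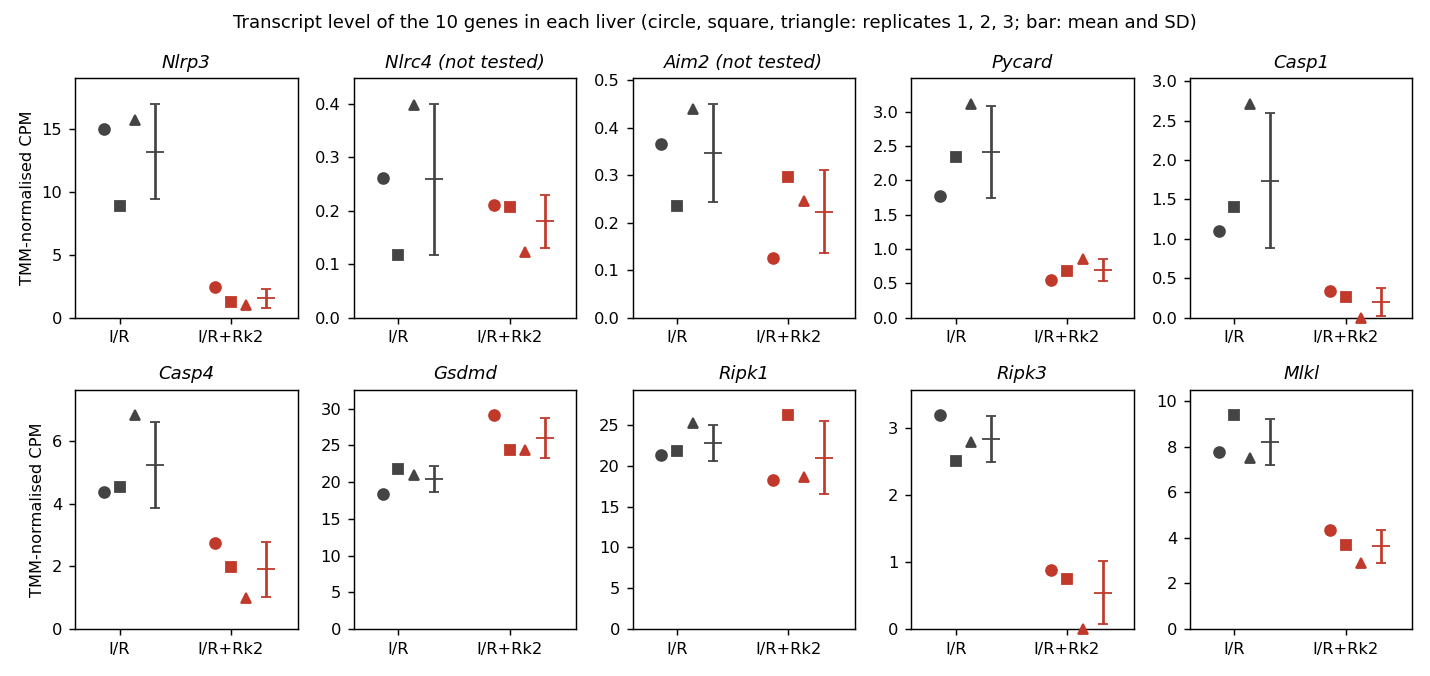
TMM-normalised CPM (counts scaled to library size) of the 10 genes in each liver, I/R in grey and I/R+Rk2 in red, with the mean and SD of 3 livers beside the points. Every I/R liver lies above every I/R+Rk2 liver for Nlrp3, Pycard, Casp1, Casp4, Ripk3 and Mlkl, every I/R liver lies below for Gsdmd, and the groups overlap for Nlrc4, Aim2 and Ripk1.

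Library totals ran from 16809613 to 35618074 counts, so that 3 counts stood for 0.0888 to 0.184 CPM, and no 2 livers of a group agreed within sampling noise. The tissue carried its hepatocyte markers at 59694 to 70012 summed CPM in I/R and 90854 to 113648 in I/R+Rk2 (8 genes, 4 of them higher and 1 lower). All 8 pan-leukocyte markers were lower in I/R+Rk2, with a summed level of 197 to 245 CPM in I/R and 47.0 to 64.9 in I/R+Rk2. All 8 monocyte markers were lower too (182 to 214 against 10.4 to 17.7 CPM, median log2 ratio -4.34), as were 8 of 9 tested neutrophil markers (469 to 601 against 88.9 to 211 CPM, median -2.04). Of 11 Kupffer cell markers 2 were lower and 0 higher (95.5 to 148 against 77.7 to 94.1 CPM, median -0.49). Among endothelial markers 3 of 7 were lower and 2 higher, and 2 of 6 stellate and 2 of 5 cholangiocyte markers were lower. Over all genes tested, 23.7% were lower and 20.3% higher. The endothelial sum was 194 to 205 CPM in I/R against 151 to 192 in I/R+Rk2, and the stellate sum 143 to 177 against 112 to 133. That of cholangiocytes was 164 to 230 against 83.8 to 117 CPM. No T, NK or B cell marker had enough counts for a test, and Mpo and Ncr1 were not among the rows of the count table. These levels move with the 6 genes that fell, and their part in the falls was not tested. In bulk liver, fewer cells of a type and less RNA per cell cannot be told apart.

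**Figure D2:**
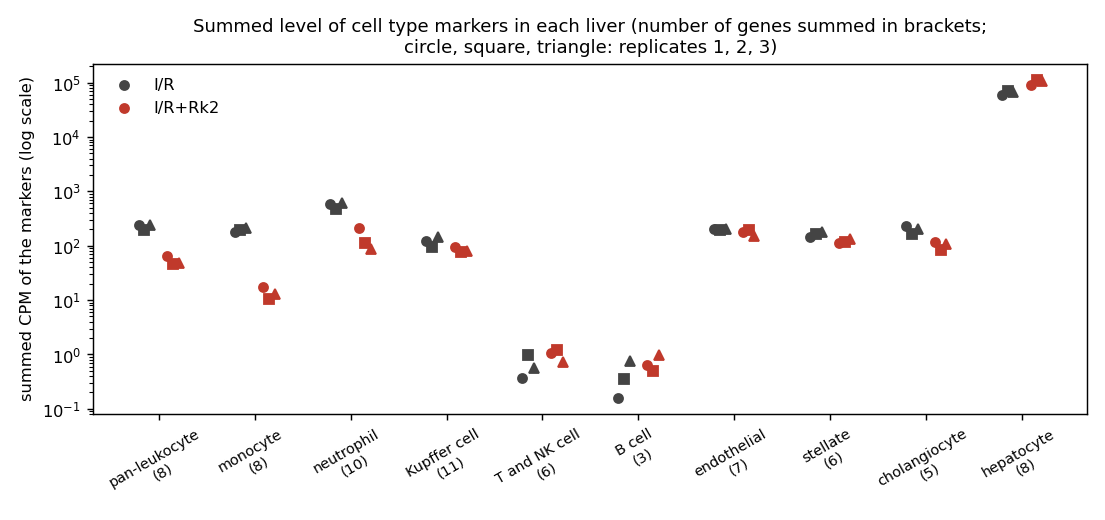
Summed CPM of cell type markers in each liver on a logarithmic axis, I/R in grey and I/R+Rk2 in red. The pan-leukocyte, monocyte and neutrophil sums are lower in every I/R+Rk2 liver, the Kupffer cell and endothelial sums differ less, and the hepatocyte sum is higher in every I/R+Rk2 liver.

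Nlrp3, the sensor of membrane damage, potassium loss and crystals, fell steeply. It is encoded on chromosome 11 (59541568 to 59566956, plus strand, GENCODE M21 on GRCm38, the assembly also named mm10). It measured 14.96, 8.82 and 15.7 CPM in I/R replicates 1 to 3 and 2.40, 1.24 and 0.983 CPM in I/R+Rk2 replicates 1 to 3. The lowest I/R liver was still well above the highest I/R+Rk2 liver. This gave a log2 ratio of -3.07 ± 0.37 (SE, edgeR adjusted p = 0.00113), 8.42-fold lower, and only 1.28% of all tested genes had a log2 ratio as low. The call held in all 17 alternative settings, although on the log2(FPKM + 1) scale the log2 ratio was -1.85.

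RefSeq has 2 start windows for Nlrp3, which was chosen because it was among the genes with the steepest falls and was well counted. The window around the downstream start is shown, the only 1 of the 2 that holds any of the 5 motifs searched. It runs from 250 bases before to 50 bases after the start, on the plus strand of GRCm38.p6 at chr11:59542436-59542735, with capitals marking GAGGAA or its reverse complement, the core bound by PU.1, a transcription factor of myeloid cells.
Nlrp3: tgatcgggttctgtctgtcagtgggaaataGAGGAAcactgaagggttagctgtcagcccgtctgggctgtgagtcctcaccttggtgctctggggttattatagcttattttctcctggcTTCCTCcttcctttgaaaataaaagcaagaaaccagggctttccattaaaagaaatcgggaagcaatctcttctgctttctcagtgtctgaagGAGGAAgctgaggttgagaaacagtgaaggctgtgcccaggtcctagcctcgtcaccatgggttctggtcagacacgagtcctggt
The core occurs 220, 129 and 36 bases before the start. It is short and common, being present in 28.3% of all 32851 promoter windows, and the upstream Nlrp3 window held none of the 5 motifs searched.

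The other sensors among the 10 genes were barely detected. Nlrc4, which senses bacterial flagellin and secretion systems through NAIP proteins (chromosome 17, 74425438 to 74459142, minus strand), had 5, 3 and 10 counts in I/R against 5, 7 and 2 in I/R+Rk2. Aim2, which senses cytosolic DNA (chromosome 1, 173350879 to 173466040, plus strand), had 7, 6 and 11 against 3, 10 and 4 counts. The groups overlapped for both genes, and both fell short of the count filter. Tested with no filter, Nlrc4 had a log2 ratio of -0.48 (95% interval -2.10 to 1.14, edgeR adjusted p = 0.627) and Aim2 of -0.61 (95% interval -2.001 to 0.78, edgeR adjusted p = 0.463). A difference of the size seen in Pycard lies inside both intervals.

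Pycard encodes ASC, the adapter that links sensor to caspase-1 (chromosome 7, 127989708 to 127993867, minus strand). It measured 1.77, 2.34 and 3.11 CPM in I/R against 0.546, 0.681 and 0.860 CPM in I/R+Rk2. The groups did not overlap. This gave a log2 ratio of -1.81 ± 0.32 (SE, edgeR adjusted p = 0.00434), or 3.50-fold lower. The longer of its 2 annotated transcripts has 3800 bases, and its exons share 485 bases with Gm45205 on the opposite strand. Reads of both cannot be told apart without a strand setting, which the sources used here do not state.

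The inflammatory caspases lie side by side on the plus strand of chromosome 9, Casp1 at 5298517 to 5307265 and Casp4 at 5308828 to 5336783. Casp1 measured 1.09, 1.405 and 2.71 CPM in I/R against 0.336, 0.266 and 0 CPM in I/R+Rk2. It rested on few reads, with 21, 36 and 68 counts against 8, 9 and 0. This gave a log2 ratio of -2.95 ± 0.68 (SE, edgeR adjusted p = 0.0119), or 7.73-fold lower, and its 95% interval of -4.54 to -1.36 was the widest of the 8 and holds the Nlrp3 value. Casp4 measured 4.38, 4.53 and 6.82 CPM against 2.73, 1.98 and 0.983 CPM, so the groups stood apart by less. Its log2 ratio was -1.44 ± 0.36 (SE, edgeR adjusted p = 0.0167). The Casp4 call was lost when I/R replicate 3 was left out (-1.21, edgeR adjusted p = 0.0610). Leaving out I/R+Rk2 replicate 2 ended it too (-1.45, edgeR adjusted p = 0.0528). That of Casp1 held in each of the 14 alternatives that tested it, though in some only narrowly. Its edgeR adjusted p rose to 0.0494 with replicate number as a block, and to 0.0470 once I/R replicate 3 was dropped. Alternatives that required 10 counts in every sample or a mean FPKM of 1 did not test Casp1, which fell short of both filters.

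The start windows of the paired caspase genes are shown side by side because these neighbours both fell. Both are on the plus strand of GRCm38.p6, Casp1 at chr9:5298267-5298566 and Casp4 at chr9:5308599-5308898. Capitals mark the PU.1 core in Casp1 and, in Casp4, GGG, any 2 bases and TTTCC on either strand, a form of the element bound by NF-κB.
Casp1: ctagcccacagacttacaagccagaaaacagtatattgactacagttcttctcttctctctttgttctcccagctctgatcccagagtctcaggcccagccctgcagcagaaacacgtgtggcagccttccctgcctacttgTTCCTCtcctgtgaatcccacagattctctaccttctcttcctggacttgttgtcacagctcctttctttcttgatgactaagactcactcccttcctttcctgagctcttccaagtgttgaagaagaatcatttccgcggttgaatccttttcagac
Casp4: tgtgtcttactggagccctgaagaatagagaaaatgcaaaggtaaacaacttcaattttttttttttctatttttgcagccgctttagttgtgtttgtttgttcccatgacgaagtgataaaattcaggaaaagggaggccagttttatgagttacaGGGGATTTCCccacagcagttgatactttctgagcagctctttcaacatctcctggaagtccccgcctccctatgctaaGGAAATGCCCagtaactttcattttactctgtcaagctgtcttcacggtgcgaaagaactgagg
The Casp4 window shown holds the κB letters at 2 places, 93 and 14 bases before the start. A second, overlapping Casp4 window (chr9:5308610-5308909) holds the same 2 matches, 104 and 25 bases before its own start. Of all windows, 1.63% hold these letters at least once. The Casp1 window held 1 PU.1 core and no match to the other 4 motifs.

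Gsdmd, the pore-forming substrate of both caspases, did not follow them. It is encoded on chromosome 15 (75862327 to 75867408, plus strand) and measured 18.4, 21.8 and 20.97 CPM in I/R against 29.1, 24.4 and 24.4 CPM in I/R+Rk2. Each I/R+Rk2 liver lay above each I/R liver, a pattern that 27.1% of all genes tested also showed. This gave a log2 ratio of 0.35 ± 0.12 (SE, 95% interval 0.07 to 0.62, edgeR adjusted p = 0.0456), or 1.27-fold higher. The call held in 2 of 17 alternatives. It was lost in DESeq2 (adjusted p = 0.0528), with library size alone (log2 ratio 0.19, edgeR adjusted p = 0.271) and in all 6 fits that left out 1 liver, be it replicate 1, 2 or 3 of I/R (0.118, 0.0634 and 0.107) or of I/R+Rk2 (0.113, 0.0756 and 0.0587, all edgeR adjusted p). Its direction held in all of them.

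**Figure D3:**
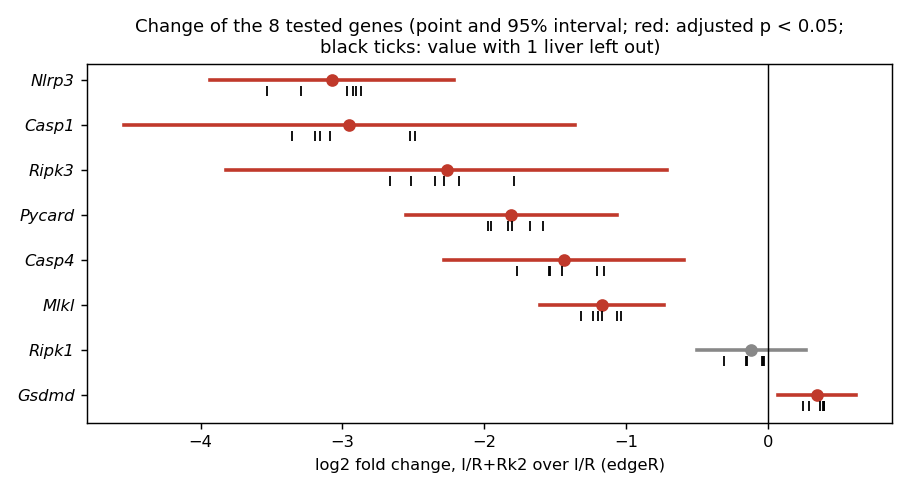
Log2 fold change of I/R+Rk2 over I/R for the 8 tested genes with its 95% interval, red where the edgeR adjusted p was below 0.05, and black ticks for the value with 1 liver left out. The intervals of Nlrp3, Casp1, Ripk3, Pycard, Casp4 and Mlkl lie below 0, that of Ripk1 spans 0, and that of Gsdmd lies just above it.

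Of the 3 necroptosis genes, Ripk3 and Mlkl fell and Ripk1 did not pass. Ripk1, the upstream kinase that also serves survival signalling below TNF receptors (chromosome 13, 34002363 to 34037147, plus strand), measured 21.3, 21.8 and 25.3 CPM in I/R against 18.2, 26.2 and 18.6 CPM in I/R+Rk2. The groups overlapped, with I/R+Rk2 replicate 2 the highest of all 6. The log2 ratio of -0.11 (95% interval -0.50 to 0.27, edgeR adjusted p = 0.596) did not pass in any of 17 alternatives. Its exons share 241 bases with Serpinb6a on the opposite strand and 511 with a pseudogene, Gm17084, on its own strand, so its counts are uncertain to that extent.

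Ripk3, the kinase that commits a cell to necroptosis (chromosome 14, 55784995 to 55788865, minus strand), measured 3.18, 2.50 and 2.79 CPM in I/R against 0.883, 0.740 and 0 CPM in I/R+Rk2. The I/R livers agreed closely, while the I/R+Rk2 livers held 21, 25 and 0 counts. This gave a log2 ratio of -2.26 ± 0.66 (SE, edgeR adjusted p = 0.0292), or 4.80-fold lower. Leaving out I/R replicate 1, 2 or 3 ended its call (0.0844, 0.0590 and 0.0731), as did leaving out I/R+Rk2 replicate 2 (0.0655, all edgeR adjusted p). Without I/R+Rk2 replicate 3, the liver with no Ripk3 counts, the log2 ratio was -1.79 and the edgeR adjusted p was 0.00561. Mlkl, the membrane-breaching effector (chromosome 8, 111311797 to 111338177, minus strand), measured 7.77, 9.37 and 7.49 CPM against 4.33, 3.67 and 2.89 CPM. The groups were well apart and the livers within each were close. This gave a log2 ratio of -1.17 ± 0.19 (SE, edgeR adjusted p = 0.00316), or 2.25-fold lower, and it passed in all 17 alternatives.

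The second of 2 Ripk1 windows is shown because Ripk1 is the member whose groups overlapped at a good depth, and because it holds 3 of the 5 motifs searched. It lies on the plus strand of GRCm38.p6 at chr13:34002624-34002923, and capitals mark TTCNNNGAA (the GAS element bound by STAT factors), GAAA, any 2 bases and GAAA (the core of the element bound by interferon-activated factors) and the PU.1 core.
Ripk1: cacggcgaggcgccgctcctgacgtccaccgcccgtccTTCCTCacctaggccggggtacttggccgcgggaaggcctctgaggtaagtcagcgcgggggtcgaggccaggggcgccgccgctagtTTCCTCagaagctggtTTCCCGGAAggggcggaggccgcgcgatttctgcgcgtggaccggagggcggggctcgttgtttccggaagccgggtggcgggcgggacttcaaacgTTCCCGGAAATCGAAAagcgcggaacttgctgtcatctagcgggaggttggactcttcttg
The GAS letters occur at 2 places and overlap the interferon core at the second of them. They are present in 8.30% and the interferon core in 3.44% of all windows. The Ripk1 windows had 61.7% and 67.0% G and C, against a median of 52.7% over all windows. Windows of the 6 genes that fell had from 41.7% (Casp4) to 52.7% (Ripk3). Those of Nlrc4 (42.7%) and Aim2 (49.3%), which were not called, lay inside that range, and Gsdmd had no window. The Ripk3 and Mlkl windows held none of the 5 motifs.

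Compared per length, on the deposited FPKM scale, the order of the 10 genes was nearly the same in both groups. In I/R, Gsdmd stood first at 11.4 ± 0.357 FPKM and Ripk1 second at 6.70 ± 0.630 (SD, n = 3), and their livers did not overlap. Mlkl (4.53 ± 0.264), Casp4 (4.05 ± 0.869) and Nlrp3 (3.83 ± 0.282) followed with overlapping ranges. Ripk3 (1.41 ± 0.261), Casp1 (1.121 ± 0.505) and Pycard (0.747 ± 0.149) came next, each overlapping its neighbour, and Aim2 (0.172 ± 0.120) and Nlrc4 (0.0661 ± 0.0351) were last. In I/R+Rk2, Gsdmd was at 12.99 ± 1.74 and Ripk1 at 5.23 ± 1.25 FPKM, Mlkl at 1.62 ± 0.393, Casp4 at 1.21 ± 0.714 and Nlrp3 at 0.341 ± 0.179 FPKM. From Mlkl downwards every neighbouring pair in I/R+Rk2 had overlapping ranges, so only the first 2 places are set apart by the spread between livers.

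Ratios within a liver do not depend on how libraries are scaled. Gsdmd FPKM was 2.69, 3.31 and 2.95 times that of Nlrp3 in the I/R livers and 27.5, 44.9 and 57.2 times in the I/R+Rk2 livers. Gsdmd over Casp4 was 2.76, 3.68 and 2.28 against 7.83, 9.83 and 24.3. Gsdmd over Mlkl was 2.61, 2.57 and 2.35 against 7.47, 7.47 and 9.67, and Ripk1 over Mlkl was 1.67, 1.31 and 1.48 against 2.16, 4.08 and 3.86. None of the 4 ratios overlapped between the groups, and each had a two-sided exact permutation p of 0.1, the smallest that 3 livers against 3 can give. For the 3 ratios with Gsdmd this outcome was fixed in advance. Gsdmd FPKM was higher, and that of Nlrp3, Casp4 and Mlkl lower, in every I/R+Rk2 liver than in any I/R liver. These 3 ratios therefore restate the separation of the single genes and add no further test of it. In Ripk1 over Mlkl, Mlkl FPKM was separated between the groups and Ripk1 FPKM overlapped. Counts and FPKM imply a transcript of 4.15 to 4.35 kb for Nlrp3 in 5 livers but 2.54 kb in I/R replicate 2, so its FPKM and its counts are not on one length scale there. The implied length also stood apart for Pycard in I/R replicate 1 (2.29 kb, against 4.04 to 4.19 kb elsewhere) and for Mlkl in I/R replicate 3 (1.59 kb, against 2.09 to 2.16 kb). For Casp4 it was 1.85 kb in I/R+Rk2 replicate 3, the liver with the Gsdmd over Casp4 ratio of 24.3, against 1.24 to 1.52 kb elsewhere. For Ripk1 it was 4.10 kb in I/R+Rk2 replicate 1, against 3.42 to 3.73 kb. Aim2, at few counts, ranged from 1.44 to 4.53 kb.

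Livers of one group differed in the same direction for many members. Within I/R, replicate 3 had the highest CPM of its group for 7 of the 10 genes, all but Gsdmd, Ripk3 and Mlkl. Within I/R+Rk2, replicate 1 was the highest for 7 (all but Aim2, Pycard and Ripk1) and replicate 3 the lowest for 7. Replicate 1 of I/R+Rk2 also had the highest pan-leukocyte, monocyte and neutrophil sums of its group. So did replicate 3 of I/R (245, 214 and 601 CPM). Replicate 1 of I/R was the lowest of its group for 5 of the 10 genes and had the lowest monocyte sum (182 CPM). Its pan-leukocyte and neutrophil sums (237 and 581 CPM) were close to those of replicate 3. Replicate 2 of I/R was the lowest for 4 genes and had the lowest pan-leukocyte and neutrophil sums (197 and 469 CPM). Replicate 3 of I/R+Rk2 had the lowest neutrophil sum (88.9 CPM). The lowest pan-leukocyte and monocyte sums were those of replicate 2 of I/R+Rk2 (47.0 and 10.4 CPM). How often each liver was highest or lowest over all genes was not counted, and Nlrc4 and Aim2 rested on few counts.

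The rest of the machinery was read from 6 lists of 72 genes, of which 64 were tested. Over all 6 lists, 23 genes were lower (35.9%, against the background of 23.7%), 9 were higher and 32 did not pass. The background for genes higher was 20.3%. The median log2 ratio of the lists was -0.23. Of the 23, 14 were lower under each alternative that tested them, and of the 9, 4 were higher under each. The values below are mainly those of these 18 genes. The calls of Naip6, P2rx7, Panx1, Chmp2b, Chmp4c, Birc3, Spata2, Pgam5 and Hsp90aa1 (lower) and of Il18, Gsdme, Hmgb1, Tlr3 and Cdc37 (higher) were each lost in at least 1 alternative.

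**Figure D4:**
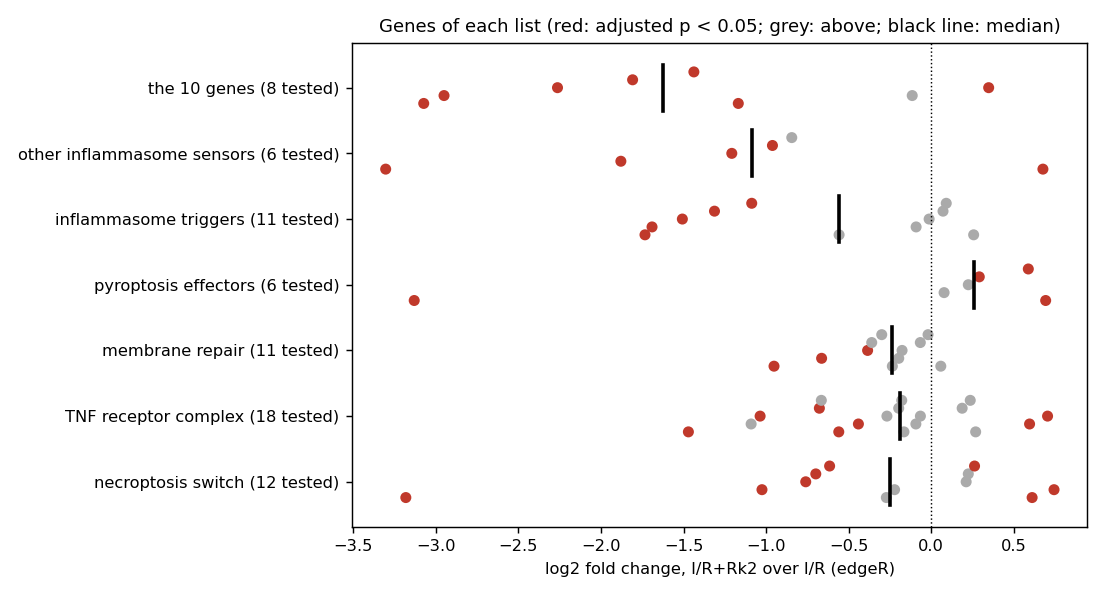
Log2 fold change of I/R+Rk2 over I/R for the tested genes among the 10 and among 6 further lists, red where the edgeR adjusted p was below 0.05, with a black line at each median. The medians run from -1.62 for the 10 genes and -1.08 for the other sensors to 0.26 for the pyroptosis effectors.

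Among other inflammasome sensors, 4 of 6 tested genes were lower (66.7%, against 23.7% of all genes) and 1 was higher (20.3% of all genes were). The median log2 ratio was -1.08. Mefv, which encodes pyrin, an inflammasome sensor of phagocytes, fell from 8.95 ± 2.13 to 0.887 ± 0.486 CPM (SD, n = 3; log2 ratio -3.30, edgeR adjusted p = 0.000931). Naip2, a receptor that hands bacterial ligands to NLRC4, fell from 6.76 ± 1.02 to 2.92 ± 0.0860 CPM (log2 ratio -1.21, edgeR adjusted p = 0.00186), though reads may be shared among the near-identical Naip copies. Nlrp12, which has been linked to restraint of NF-κB signalling, fell by 0.96 on the log2 scale (edgeR adjusted p = 0.00614). Nlrp6 went the other way. It rose from 44.7 ± 6.80 to 71.5 ± 4.54 CPM (log2 ratio 0.68 ± 0.12, SE, edgeR adjusted p = 0.00502). It was the only called sensor that was higher in I/R+Rk2, in every liver and under all 17 alternatives.

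Of 11 tested genes that trigger or license inflammasomes, 5 were lower (45.5%, against 23.7% of all genes), 0 higher (20.3% of all genes were) and 6 did not pass. Gbp2 and Gbp5, guanylate-binding proteins that open bacterial vacuoles and bacterial envelopes to caspase-11, both fell. Gbp2 went from 10.6 ± 1.13 to 4.29 ± 0.577 CPM (log2 ratio -1.31, edgeR adjusted p = 0.00110). Gbp5 fell by 1.51 on the log2 scale (edgeR adjusted p = 0.0131). The other guanylate-binding proteins listed, Gbp3 (log2 ratio 0.07, edgeR adjusted p = 0.798) and Gbp7 (-0.56, 0.222), did not pass, and their groups overlapped. Kcnk6, a potassium channel, fell from 2.03 ± 0.137 to 0.601 ± 0.255 CPM (log2 ratio -1.69, edgeR adjusted p = 0.00747). The kinase Nek7, which bridges NLRP3 subunits, was at 30.9 ± 13.9 and 28.9 ± 13.6 CPM, and its groups overlapped (log2 ratio -0.09, edgeR adjusted p = 0.884).

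Among 6 tested effectors, 1 was lower (16.7%, against 23.7% of all genes) and 3 were higher (Il18, Gsdme and Hmgb1, against 20.3% of all genes). The lower call held in every alternative, and 0 of the 3 higher calls did. Il1b, which encodes the main cytokine released by caspase-1, measured 99.9 ± 2.91 against 11.4 ± 5.16 CPM (log2 ratio -3.13, edgeR adjusted p = 0.000568), close in size to that of Nlrp3. Il18, the other caspase-1 cytokine, measured 5.73, 6.17 and 7.34 CPM in I/R against 7.44, 10.7 and 10.9 CPM in I/R+Rk2. The groups only just stood apart. Its log2 ratio was 0.59 ± 0.19 (SE, edgeR adjusted p = 0.0381), and leaving out I/R replicate 1 or 2 (0.112 and 0.0976) or I/R+Rk2 replicate 2 or 3 (0.117 and 0.10001, all edgeR adjusted p) ended the call, which held in 8 of 17 alternatives. Gsdme, a gasdermin that caspase-3 cuts, went from 3.67 ± 1.02 to 5.91 ± 0.320 CPM (log2 ratio 0.69, edgeR adjusted p = 0.0385), and its call was lost when any liver but I/R replicate 1 was left out (edgeR adjusted p = 0.0554 to 0.0991). Hmgb1, an alarmin that dying cells release, had a log2 ratio of 0.29 (edgeR adjusted p = 0.0438), lost when any liver but I/R+Rk2 replicate 1 was left out (edgeR adjusted p = 0.0843 to 0.122), and its direction turned on the 3 FPKM fits. Ninj1, whose product ruptures the membrane after gasdermin pores have formed, was at 60.8 ± 31.3 and 71.1 ± 43.2 CPM (edgeR adjusted p = 0.726). Of 11 ESCRT genes, which patch pores of gasdermin D and MLKL, 3 were lower (27.3%, near the 23.7% of all genes) and 0 higher, and the median log2 ratio was -0.24. Chmp4b fell by 0.66 on the log2 scale (edgeR adjusted p = 0.00177).

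In the TNF receptor complex that feeds RIPK1, 5 of 18 genes were lower (27.8%, near the 23.7% of all genes) and 2 higher (20.3% of all genes were), with a median log2 ratio of -0.19. Tnfrsf1a, the receptor itself, fell from 182 ± 11.4 to 88.5 ± 7.62 CPM (log2 ratio -1.04, edgeR adjusted p = 0.000547). Tnfaip3, the ubiquitin editor A20, fell from 43.1 ± 8.36 to 15.6 ± 2.84 CPM (log2 ratio -1.47, edgeR adjusted p = 0.00150), and Tbk1, a kinase that restrains RIPK1, fell from 26.4 ± 1.36 to 16.5 ± 0.868 CPM (log2 ratio -0.68, edgeR adjusted p = 0.00198). The adapter Tradd rose by 0.71 (edgeR adjusted p = 0.00428) and Rbck1, a subunit of the linear ubiquitin ligase, rose by 0.60 (edgeR adjusted p = 0.00287).

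Among genes that decide between survival, apoptosis and necroptosis, 5 of 12 were lower (41.7%, against 23.7% of all genes) and 3 higher (20.3% of all genes were). Tlr4, the lipopolysaccharide receptor that can signal to RIPK3, measured 6.98 ± 0.319 against 0.7998 ± 0.536 CPM (log2 ratio -3.18, edgeR adjusted p = 0.00261). Casp8, the protease that cuts RIPK1 and RIPK3 and so restrains necroptosis, went from 36.3 ± 2.66 to 21.4 ± 0.767 CPM (log2 ratio -0.76, edgeR adjusted p = 0.00120), and Cflar, its partner cFLIP, fell from 73.9 ± 10.6 to 45.5 ± 3.29 CPM (log2 ratio -0.70, edgeR adjusted p = 0.00418). Ppm1b, a phosphatase that removes the activating mark from RIPK3, rose, with a log2 ratio of 0.61 (edgeR adjusted p = 0.00668). Zbp1, the nucleic acid sensor that engages RIPK3, did not pass (log2 ratio -0.22, edgeR adjusted p = 0.546).

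**Figure D5:**
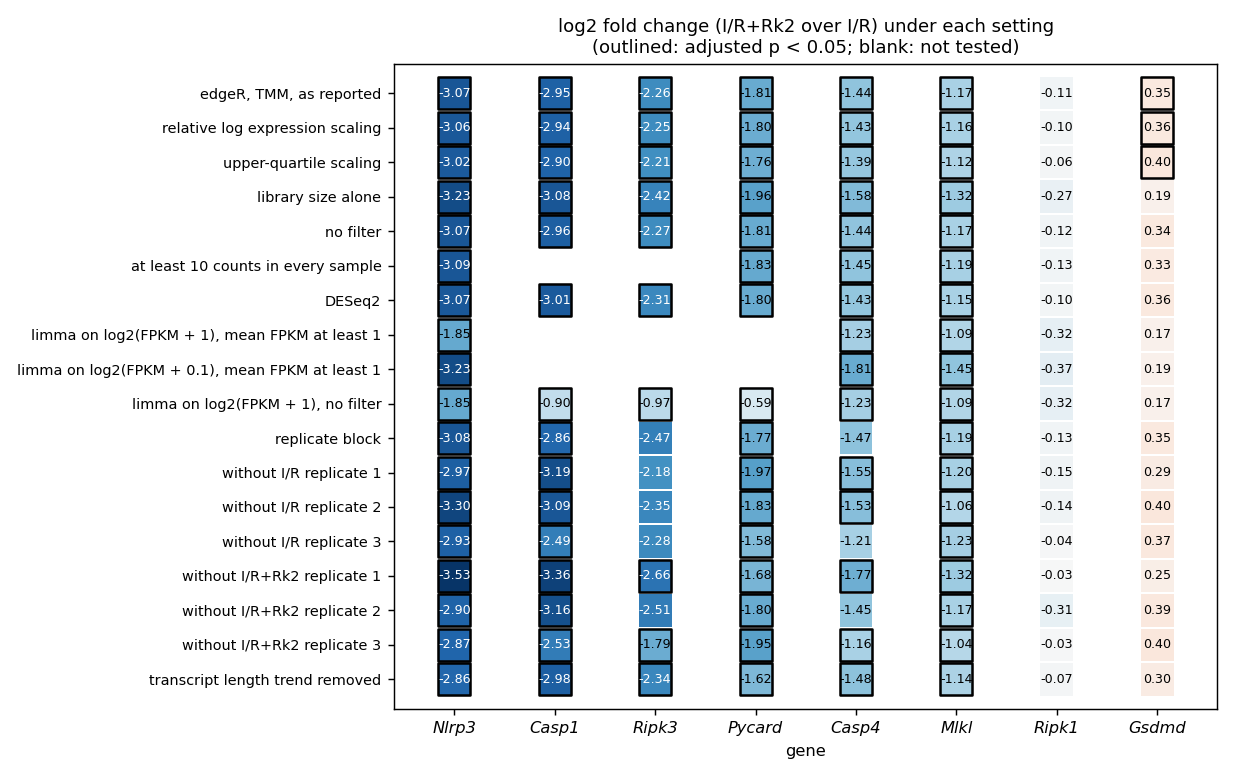
Log2 fold change of each tested gene under every setting, with an outline where the adjusted p was below 0.05 and a blank where the gene was not tested. Nlrp3 and Mlkl are outlined throughout, Casp1 and Pycard wherever tested, Casp4 in all but 3 and Ripk3 in all but 5 of the alternatives that tested them, Gsdmd in 2 alternatives and Ripk1 in none.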

How the data were processed

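RNA was sequenced from 6 livers, 3 per group, from 250 ng of RNA each. The submitters' processing notes name HISAT2 2.2.1, StringTie 1.3.3, FastQC 0.11.5 and the mm10 build, and the annotation and strand setting are not given in the sources used here. The authors deposited whole-number counts per gene, which may be StringTie estimates made whole, and FPKM (fragments scaled to transcript length and library size). Sample titles tied each column to its library.

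The main test was that of edgeR 4.0.16 under R 4.3.3: default filterByExpr, TMM scaling, the quasi-likelihood F test over all 6 libraries and Benjamini-Hochberg adjustment over the 12411 genes tested, with a threshold of 0.05, and 2-fold as the study set. CPM use TMM-scaled library sizes. Standard errors are the absolute log2 fold change over the square root of F. Alternatives used DESeq2 1.42.0, limma 3.58.1 on log2(FPKM + pseudocount of 1 or 0.1) and other scalings and filters. Fits were tested on simulated data. The level of 3 counts leaves out the error of PCR. The intervals cover that error only so far as it adds to the spread between libraries. Whether PCR copies of one molecule were removed before counting is not given in the sources used here. The labels do not state that each liver came from a separate mouse, so p-values measure the spread between these samples. The 10 genes, the lists, the tests and the rule for naming genes (each of the 10, and any list gene with an adjusted p below 0.05, the 3 smallest p of a list with their means) were chosen with earlier results of these data known. After values were seen, values were given mainly for the list genes whose call held in every alternative. The others were named only (Il18, Gsdme and Hmgb1 excepted). Gbp3, Gbp7, Nek7, Ninj1 and Zbp1 were added from outside the rule. Promoter windows are RefSeq's on GRCm38.p6 and matched 9 of the 10 genes (not Gsdmd), in 12 windows. The motifs searched on both strands were GAAA, any 2 bases, GAAA (interferon core), GGG, any 2 bases, TTTCC (κB), TTCNNNGAA (GAS), TGANTCA (AP-1) and GAGGAA (PU.1 core).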

Additional observations from a re-analysis of the deposited data

How the results depend on the processing

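The log2 fold changes of the 8 tested genes kept their direction under all 17 alternatives that could test them. Of the 10 genes, the number lower was 3 on both FPKM fits with a mean FPKM of at least 1, where only 5 were tested, and the number lower by 2-fold was 3 on all 3 FPKM fits. With 1 liver left out, 4 to 6 were lower, and the same number by 2-fold. The number higher was 0 instead of 1 with library size alone, with no filter, with at least 10 counts in every sample, in DESeq2, on the 3 FPKM fits, with the replicate block, with the transcript length trend removed (added after seeing the data) and with 1 liver left out (0 in each of the 6 fits). Library size alone moved the median of all genes to -0.17. Pathway genes higher numbered 4 with library size alone and on the 3 FPKM fits, and 4 to 6 with 1 liver left out, while those lower numbered 17 to 24 with 1 liver left out. The same-numbered livers did not deviate together (correlations of -0.0313 to 0.0477). No pairing by number was visible, but so few livers cannot exclude one, and the labels do not state it. The replicate block lowered the count over all genes from 5454 to 4713 and that of the 10 genes lower from 6 to 4, as Casp4 (edgeR adjusted p = 0.0517) and Ripk3 (0.0567) lost their calls. Aim2 and Nlrc4 had at most 11 counts in any liver. Whether Nlrp3 or Casp1 fell further depends on the setting: without the length trend the log2 ratios were -2.86 and -2.98.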
